A study of Mus musculus with 24 samples.

Results

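The mature B cell sort of mouse bone marrow was compared between 4 mice with VHL flox/flox and 4 mice with VHL flox/WT, using 8 of the 24 libraries of the study and every gene of its count table. The libraries were chosen by their labels alone, as mature B cells of either genotype. All 8 mice were MB1 Cre +/WT. Controls therefore also carried the recombinase together with a floxed Vhl allele and a wild-type one, and no mouse without Cre or without a floxed allele enters the comparison. Mb1-Cre is a knock-in at Cd79a, the gene of a signalling chain of the B cell receptor, so recombination begins early in the B lineage and mature cells descend from cells in which the enzyme was already active. The other 16 libraries hold 2 earlier sorts of the same 8 mice, labelled immature and proBpreB, so that each of the 6 groups has 4 libraries. Neither the ages of the mice nor the gates of the sort are stated in the labels.

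Vhl encodes the substrate-recognition subunit of an E3 ubiquitin ligase. In normal oxygen, prolyl hydroxylases of the Egln family modify the alpha subunits of the hypoxia-inducible factors (HIF), and the Vhl protein binds the modified subunits and sends them to the proteasome. Without Vhl or without oxygen the alpha subunits persist, pair with Arnt and switch on genes of glycolysis, glycogen storage, mitophagy, blood vessel growth and collagen modification. Bone marrow is itself a low-oxygen tissue, and recirculating mature B cells pass between it and the blood and lymphoid organs.

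Gene levels are given in CPM, the count of a gene scaled to the size of its library with TMM factors. Library totals ran from 8458523 to 10927409 counts in the mature sort, and 3 counts, the limit that a count of 0 allows, correspond to 0.286 to 0.377 CPM. Read from Xist and Y-linked genes, each genotype held 1 male, replicate 1, and 3 females. On the first principal component of the 8 libraries, which held 41.6% of the variance, all flox/WT libraries lay on one side and all flox/flox libraries on the other. The second component (15.55%) set flox/WT replicates 1 and 2 (29.4 and 31.1) apart from flox/WT replicates 3 and 4 (-27.4 and -28.5), with the flox/flox libraries between them. Markers of the labelled cell type were abundant in every library. Ms4a1 (CD20) measured 2129 to 2584 CPM in flox/WT libraries and 1640.4 to 2032 CPM in flox/flox libraries, and Fcer2a (CD23), a marker of follicular B cells, measured 1576 to 1845 CPM in flox/WT libraries and 1489 to 1768 CPM in flox/flox. Immunoglobulin genes and genes encoded in the mitochondrion were not analysed here, so no receptor isotype is given.

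Markers of other cell types were also present in both genotypes. The 20 neutrophil and monocyte markers summed to 12631 to 19604 CPM in flox/WT libraries and 13875 to 22438 CPM in flox/flox libraries, 15 erythroid markers summed to 3811 to 10753 and 7785 to 21210.0 CPM, and both ranges overlapped. Sums that did not overlap were those of 12 natural killer cell markers, at 42.9 to 57.3 CPM in flox/WT libraries and 78.3 to 104.6 CPM in flox/flox libraries, of 16 follicular B cell markers, at 17775 to 18874 and 15339 to 15815 CPM, and of 14 stroma and endothelium markers, at 223 to 272 and 165 to 203 CPM. Of the stroma and endothelium list only 7 members were tested as described below. Of them 1 was called higher and 1 lower (median log2 change 0.03), beside 9.69% and 6.62% of all genes. The member called lower also stands on the list of integrin and adhesion genes, and with a filter of 10 CPM in 4 libraries only 2 members were tested. No marker of the lists summed here was at 0 counts in all 8 libraries. In bulk RNA, fewer cells of a type and less RNA per cell cannot be told apart.

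**Figure D1:**
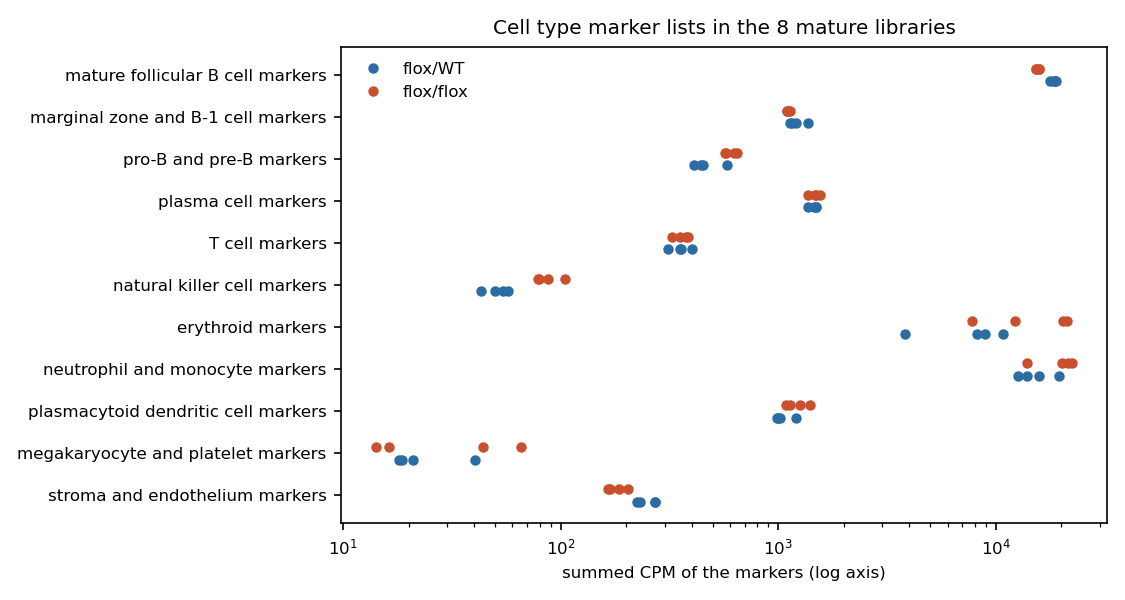
Summed CPM (x axis, log scale) of each cell type marker list (y axis) in the 8 mature libraries, 1 point per library, blue for flox/WT and orange for flox/flox. The natural killer sums of flox/flox libraries (78.3 to 104.6 CPM) lie above those of flox/WT libraries (42.9 to 57.3 CPM), the follicular B cell sums lie below, and the neutrophil and erythroid ranges overlap.

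Vhl itself, on chromosome 6 at 113623994 to 113631634 (GRCm38), measured 30.5, 26.3, 27.4 and 32.4 CPM in flox/WT libraries and 8.37, 9.79, 5.39 and 6.85 CPM in flox/flox libraries. Every flox/flox library was below every flox/WT library, and the flox/flox mean was 26.1% of the flox/WT mean. With 4 libraries on each side, the exact permutation test on log2 CPM (two-sided) gave p = 0.0286, the smallest value that 70 assignments allow. In edgeR's quasi-likelihood test with Benjamini-Hochberg adjustment over all genes, the log2 change was -1.94 (SE 0.24, adjusted p = 6.24e-07). The labels do not state where the lox sites lie, so reads from any part of Vhl outside the deletion are included in these values.

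Of 12850 genes tested, 1245 were higher in flox/flox mature cells (9.69%) and 851 were lower (6.62%) at an adjusted p under 0.05. The rises were larger than the falls. Among genes called higher, 259 changed by at least 4-fold and 616 by at least 2-fold, against 22 and 106 among genes called lower. Most falls were small, and 501 of the 851 were below 1.5-fold, as were 281 of the 1245 rises. The 4 flox/flox libraries lay wholly above the 4 flox/WT libraries for 1158 genes (9.01%) and wholly below them for 933 genes (7.26%), and 929 of the called rises and 618 of the called falls were without overlap. The median log2 change of all tested genes was 0.01. The gene lists described below hold 925 places in 47 lists, of which 873 were tested after the filter on low counts, and each count is given over the tested members. For every list, the counts called stand beside 9.69% of all genes called higher and 6.62% called lower.

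**Figure D2:**
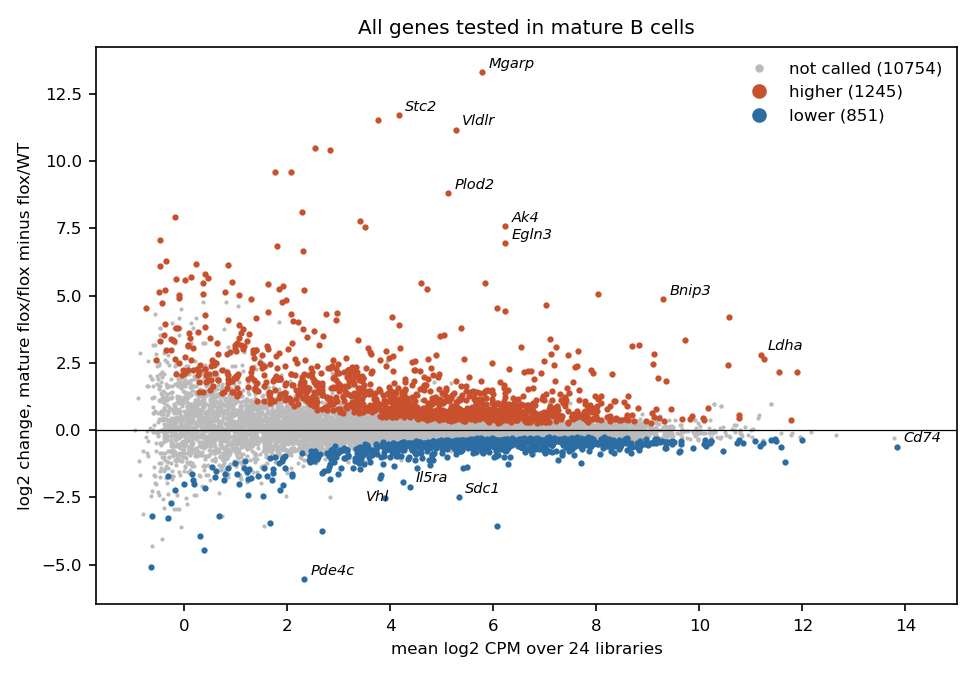
Log2 change between genotypes in mature cells (y axis) against mean log2 CPM over the 24 libraries (x axis) for the 12850 genes tested, orange for the 1245 called higher in flox/flox, blue for the 851 called lower and grey for the rest. Mgarp, at least 1522-fold higher, is the highest labelled point and Pde4c, at least 7.25-fold lower, the lowest, and the fitted height of such genes without counts in a genotype depends on the prior count.

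The 12 largest rises were of genes absent or low in control mature cells. Mgarp, which encodes a glutamic acid-rich mitochondrial protein, measured 0 CPM in all 4 flox/WT libraries and 121, 145, 131 and 128 CPM in flox/flox libraries (edgeR adjusted p = 2.41e-19). Stc2, the secreted glycoprotein stanniocalcin 2, measured 0 CPM in all 4 flox/WT libraries and 42.5, 42.0, 39.0 and 49.3 CPM in flox/flox libraries (edgeR adjusted p = 1.15e-15). The genes lie at chr3:51388412-51396547 (Mgarp) and chr11:31359441-31370061 (Stc2) on GRCm38.p6. Against a floor of 3 counts over the 4 control libraries, these are at least 1522-fold and at least 498-fold higher. In both genes every flox/flox library was far above that floor, and the 4 flox/flox mice lay close together. Ppp1r3g, a subunit that targets protein phosphatase 1 to glycogen, measured 0 CPM in all 4 flox/WT libraries and 34.8, 56.5, 23.6 and 37.2 CPM in flox/flox libraries, at least 440.3-fold higher. Nxph4 (neurexophilin 4) and P4ha2 (a catalytic subunit of the collagen prolyl 4-hydroxylase) were also without a single count in control libraries, and were at least 208-fold and 115-fold higher. For these 5 genes, the floor and not the control level sets the fold.

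Vldlr, the very low density lipoprotein receptor, had 1 count over the control libraries, in replicate 3, against 3469 counts in flox/flox libraries, which measured 88.5, 99.0, 103 and 94.7 CPM. The ratio of scaled counts was 3350 (95% counting interval 601 to 132340). Plod2, the lysyl hydroxylase of collagen telopeptides, had 3 control counts, all of them in that library, and measured 46.5, 42.3, 45.7 and 44.5 CPM in flox/flox libraries, a ratio of counts of 519 (95% counting interval 177 to 2517). Plod2 overlaps B430319G15Rik in the RefSeq annotation, and reads in the bases that overlapping genes share cannot be told apart here. The same holds for 12 other genes named here that overlap a gene called in the same direction, namely Atp1b1, Bhlhe40, Ccnd2, Cd72, Ciita, Galk1, Gys1, H2-DMa, Ndufa4l2, Nprl2, Shmt2 and Tnfsf9. Arhgdig, a GDP-dissociation inhibitor of small GTPases, and Rgs11, a regulator of G protein signalling, are neighbours on chromosome 17 with 1176 bases between them. Arhgdig measured 0, 0, 0 and 0.0952 CPM in flox/WT libraries and 7.49, 11.2, 13.0 and 13.6 CPM in flox/flox libraries, and Rgs11 measured 0, 0, 0 and 0.476 CPM in flox/WT libraries and 14.2, 24.5, 26.8 and 49.3 CPM in flox/flox libraries (log2 change 7.53, SE 0.56, edgeR adjusted p = 2.43e-10). Both genes of the pair were high in all flox/flox mice, and their few control counts came from flox/WT replicate 4 alone. Ak4, a mitochondrial adenylate kinase, measured 0.362, 0.880, 0.498 and 1.14 CPM in flox/WT libraries and 149, 131, 137 and 162 CPM in flox/flox libraries (log2 change 7.58, SE 0.26, edgeR adjusted p = 2.91e-19).

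The upstream sequences of 4 strongly induced genes are printed because HIF binds a short core motif, ACGTG or GCGTG, known as the hypoxia response element core. The 250 bases before each RefSeq start (GRCm38.p6) are given 5′ to 3′ on the gene's strand, with each match to the core on either strand (CACGT and CACGC are the reverse complements) in capitals, and overlapping matches counted separately. The windows are chr3:51396548-51396797 (minus strand) for Mgarp, chr11:31370062-31370311 (minus strand) for Stc2, chr11:54100674-54100923 (plus strand) for P4ha2 and chr7:138909507-138909756 (minus strand) for Bnip3, a mitophagy receptor described below.
Mgarp: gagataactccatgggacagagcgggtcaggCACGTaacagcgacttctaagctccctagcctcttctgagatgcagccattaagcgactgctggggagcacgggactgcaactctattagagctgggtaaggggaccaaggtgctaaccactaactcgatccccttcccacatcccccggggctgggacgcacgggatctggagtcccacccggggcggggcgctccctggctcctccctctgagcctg
Stc2: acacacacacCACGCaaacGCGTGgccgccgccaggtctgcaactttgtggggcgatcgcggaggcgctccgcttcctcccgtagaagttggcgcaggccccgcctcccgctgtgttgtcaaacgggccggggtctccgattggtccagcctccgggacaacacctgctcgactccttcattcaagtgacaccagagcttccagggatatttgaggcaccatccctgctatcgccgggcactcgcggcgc
P4ha2: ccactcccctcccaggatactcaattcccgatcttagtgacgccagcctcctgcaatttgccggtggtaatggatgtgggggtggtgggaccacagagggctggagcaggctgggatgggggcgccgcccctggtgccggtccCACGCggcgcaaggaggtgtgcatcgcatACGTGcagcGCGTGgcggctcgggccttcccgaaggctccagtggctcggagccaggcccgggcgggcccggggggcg
Bnip3: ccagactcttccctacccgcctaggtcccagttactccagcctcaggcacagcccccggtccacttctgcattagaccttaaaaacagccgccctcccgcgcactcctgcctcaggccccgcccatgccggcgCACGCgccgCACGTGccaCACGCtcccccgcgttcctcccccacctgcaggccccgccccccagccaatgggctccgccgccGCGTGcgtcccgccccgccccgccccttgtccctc

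Mgarp had 1 match, whose first base lay 219 bases before the start. In Stc2 there were 2 matches, at 240 and 231 bases, in P4ha2 3 matches between 107 and 69 bases, and in Bnip3 5 matches between 117 and 35 bases, of which CACGT and ACGTG share letters. A core match is common. Of all 32851 promoter windows in the RefSeq table outside chromosome 18, 38.6% held it, and of 9706 tested genes with an entry, 60.4% did. Of the 12 largest rises, 7 had an entry and 6 held a match, with Vldlr the one that did not. On the glycolysis list 18 of 20 genes with an entry held a match. Over all calls the shares were close to one another, at 62.3% of genes called higher, 61.4% of genes called lower and 60.1% of genes not called. A match is a description of these letters and no evidence of binding.

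Among HIF pathway components, 4 of 13 tested members rose and 1, Vhl, fell, beside 9.69% and 6.62% of all genes tested (15 were listed; Elob and Eloc were not analysed here). Their median log2 change was 0.13. The rises were of Egln1 and Egln3, which are oxygen sensors, and of the alpha subunit genes Epas1 and Hif3a. Egln3, the prolyl hydroxylase PHD3, measured 1.81, 0.880, 1.62 and 1.33 CPM in flox/WT libraries and 190, 181, 150.1 and 184 CPM in flox/flox libraries (log2 change 6.95, SE 0.18, edgeR adjusted p = 8.76e-22). Egln1, the main oxygen-sensing hydroxylase PHD2, measured 56.1, 65.9, 59.8 and 49.4 CPM in flox/WT libraries and 416, 527, 390.4 and 441 CPM in flox/flox libraries (log2 change 2.94, SE 0.15, edgeR adjusted p = 1.9e-15). Neither overlapped between genotypes. Egln2, the third hydroxylase of the family, measured 76.3 to 103 CPM in flox/WT libraries and 78.0 to 114 CPM in flox/flox and did not pass (adjusted p = 0.87).

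Hif1a, the alpha subunit gene of HIF-1, measured 248, 202, 194 and 189.8 CPM in flox/WT libraries and 237, 178, 275 and 225 CPM in flox/flox libraries, with overlapping ranges (edgeR adjusted p = 0.498). Epas1, which encodes HIF-2 alpha, was low in all libraries and measured 0, 0.377, 0.622 and 0.0952 CPM in flox/WT libraries and 2.31, 4.09, 4.02 and 1.34 CPM in flox/flox libraries (log2 change 3.42, SE 0.71, edgeR adjusted p = 0.00106). Hif3a, which encodes HIF-3 alpha, had 3 counts in control and 250 in flox/flox libraries, which measured 7.05, 5.60, 7.08 and 8.19 CPM. Both rose from a few counts, and with a filter of 10 CPM in 4 libraries neither was tested. The partner subunit Arnt (log2 change 0.13), the asparaginyl hydroxylase Hif1an (0.17), the ligase scaffold parts Cul2 (0.25) and Rbx1 (-0.12), and the coactivators Crebbp (0.06) and Ep300 (0.12) did not pass the test, with edgeR adjusted p from 0.125 to 0.853.

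Glycolysis genes rose in 20 of 21 cases and fell in 0, with a median log2 change of 2.46 beside 0.01 for all genes. All 20 were higher without overlap between genotypes, beside 9.01% of all genes. The rises covered the pathway from uptake to export. Aldoc, an aldolase, measured 11.2 to 15.7 CPM in flox/WT libraries and 347 to 382 CPM in flox/flox libraries (log2 change 4.66, SE 0.15, edgeR adjusted p = 6.93e-20). Slc16a3, the lactate exporter MCT4, measured 18.6, 10.8, 15.7 and 14.8 CPM in flox/WT libraries and 509.6, 493, 482 and 505 CPM in flox/flox libraries (log2 change 5.05, SE 0.16, edgeR adjusted p = 7.8e-20). For both genes the 4 libraries of each genotype lay close together and far from those of the other. Slc16a3 overlaps Csnk1d in the annotation. Tpi1, triosephosphate isomerase, measured 148, 149, 108 and 116 CPM in flox/WT libraries and 2480.1, 2434, 2079 and 2554 CPM in flox/flox libraries. Ldha, which makes lactate from pyruvate, measured 509.6, 442, 489.7 and 405 CPM in flox/WT libraries and 3186, 3412, 3084 and 3212 CPM in flox/flox libraries (log2 change 2.80, SE 0.11, edgeR adjusted p = 6.69e-18). The genotypes were far apart for these genes too. Pgk1 and Pfkp, which encode phosphoglycerate kinase and the platelet-type phosphofructokinase, had log2 changes of 3.36 and 3.11.

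The smallest rise on the list was 1.11 on the log2 scale and the largest 5.05. Pfkfb4, a kinase that makes an activator of phosphofructokinase, was the member that did not pass (28.1 to 49.3 CPM in flox/WT libraries and 25.8 to 38.0 CPM in flox/flox; adjusted p = 0.145). Its paralog Pfkfb3 measured 21.5, 18.7, 20.5 and 23.7 CPM in flox/WT libraries and 184, 185, 169 and 188 CPM in flox/flox libraries (log2 change 3.10, SE 0.12, edgeR adjusted p = 6.87e-18). The libraries of the 2 genotypes overlapped for Pfkfb4 and did not for Pfkfb3. Members outside the naming rule, chosen after their values were seen, were Slc2a1, the glucose transporter GLUT1, at 104, 106, 82.7 and 87.6 CPM in flox/WT libraries and 487, 475, 491 and 487 CPM in flox/flox libraries (log2 change 2.35, SE 0.13, edgeR adjusted p = 1.61e-14), and Hk2, the inducible hexokinase, at 8.44, 12.3, 5.60 and 5.71 CPM in flox/WT libraries and 106, 99.1, 124 and 110.4 CPM in flox/flox libraries (log2 change 3.78, SE 0.21, edgeR adjusted p = 1.54e-14). Pdk1, the kinase that switches off pyruvate dehydrogenase, was chosen the same way and had a log2 change of 2.40 (edgeR adjusted p = 3.25e-12).

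**Figure D3:**
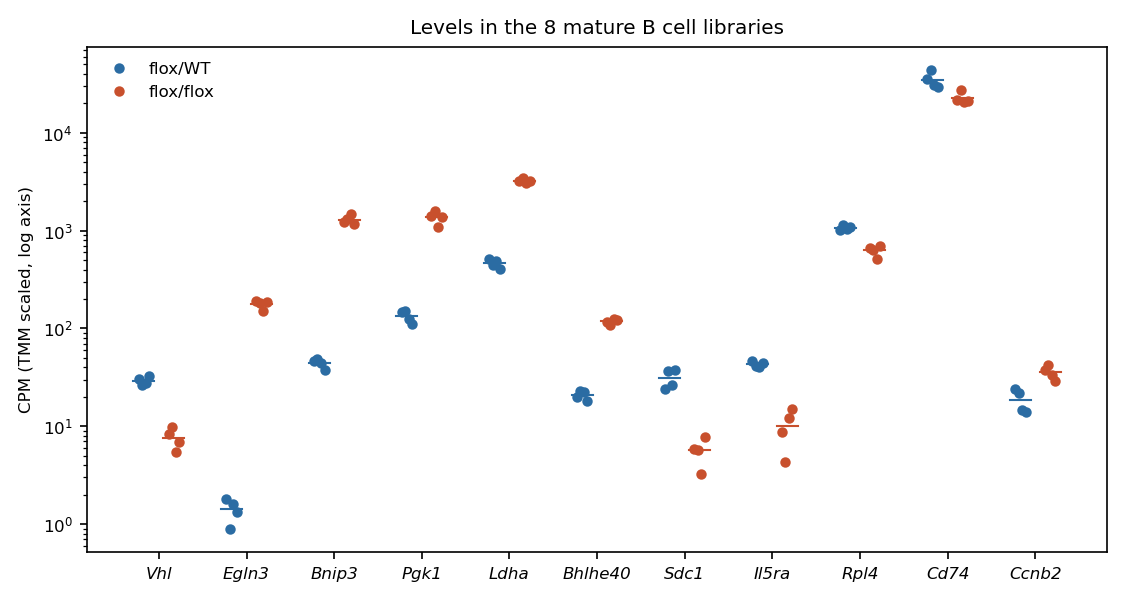
CPM (y axis, log scale) of the genes named in this caption (x axis) in the 8 mature libraries, 1 point per library and a bar at each mean, blue for flox/WT and orange for flox/flox. Egln3, Bnip3, Pgk1, Ldha and Bhlhe40 are higher in all flox/flox libraries, Vhl, Sdc1, Il5ra, Rpl4 and Cd74 are lower in all of them, and Ccnb2 is higher by less.

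Glycogen genes rose in 8 of 12 cases with 0 falls (median 1.26). Synthesis and breakdown both took part. Pgm2, a phosphoglucomutase, measured 44.0, 44.4, 39.2 and 33.7 CPM in flox/WT libraries and 319, 389, 301 and 357 CPM in flox/flox libraries (log2 change 3.08, SE 0.13, edgeR adjusted p = 3.3e-17). Gbe1, the branching enzyme, measured 35.7 to 48.4 CPM in flox/WT libraries and 119 to 163 CPM in flox/flox (log2 change 1.78, SE 0.13, edgeR adjusted p = 2.8e-11), and Gys1, the synthase, measured 26.9 to 47.2 CPM in flox/WT libraries and 81.6 to 122 CPM in flox/flox (log2 change 1.46, SE 0.13, edgeR adjusted p = 2.02e-09). On the side of breakdown, Pygl, a glycogen phosphorylase, measured 76.9 to 115 CPM in flox/WT libraries and 221 to 288 CPM in flox/flox (log2 change 1.51, SE 0.14, edgeR adjusted p = 1.78e-09). Ppp1r3b, another glycogen-targeting subunit of protein phosphatase 1, measured 3.62, 5.53, 9.21 and 8.09 CPM in flox/WT libraries and 42.9, 32.6, 40.2 and 41.8 CPM in flox/flox libraries. In none of these 5 did the genotypes overlap. Pgm1, Pygb and Gyg did not pass, at log2 changes of 0.38, 0.03 and 0.01.

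Genes of the mitochondrial response to hypoxia rose in 11 of 15 cases with 0 falls (median 1.93, the same with Mgarp at its bound). Bnip3, a receptor of mitophagy on the outer mitochondrial membrane, measured 46.9, 48.4, 44.8 and 37.7 CPM in flox/WT libraries and 1211, 1308, 1488 and 1169 CPM in flox/flox libraries (log2 change 4.86, SE 0.14, edgeR adjusted p = 3.1e-21), and its relative Bnip3l measured 263, 269, 237 and 222 CPM in flox/WT libraries and 996, 962, 948 and 878 CPM in flox/flox libraries (log2 change 1.93, SE 0.10, edgeR adjusted p = 2.93e-15). Controls of both genes lay wholly below the flox/flox libraries. Mxi1, a Myc antagonist, had a log2 change of 2.20, and Higd1a, a respiratory chain factor, one of 2.11. Cox4i1 and Cox4i2, the isoforms of a cytochrome oxidase subunit that swap in some hypoxic cells, did not pass. Cox4i2 had 2 counts in control and 10 in flox/flox libraries, and Cox4i1 measured 338 to 392 CPM in flox/WT libraries and 277 to 380 CPM in flox/flox (adjusted p = 0.238).

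Few genes of respiration itself were called. Of 34 nuclear-encoded oxidative phosphorylation genes 3 fell and 0 rose (median -0.10), a share of falls close to the 6.62% of all genes. Ndufa4, a subunit of cytochrome oxidase, stood out at 161, 186, 181 and 159 CPM in flox/WT libraries and 71.3, 77.2, 99.7 and 67.2 CPM in flox/flox libraries (log2 change -1.12, SE 0.16, edgeR adjusted p = 4.52e-06). Its paralog Ndufa4l2, chosen after its values were seen, was low and rose, at 0.241, 0.126, 0.124 and 0 CPM in flox/WT libraries and 3.41, 3.34, 4.65 and 5.75 CPM in flox/flox libraries (log2 change 5.05, SE 0.70, edgeR adjusted p = 4.2e-06). Ndufa4l2 overlaps Shmt2, an abundant gene that also rose. Cox8a, another of the falls, lost its call without replicate 1, 3 or 4 of flox/flox or replicate 2 of flox/WT and in the fit of the 8 mature libraries. Ndufa10, the last of them, lost its call in 12 of 16 alternatives (edgeR adjusted p = 0.047). These were RLE factors, no filter, the 10 CPM filter, the 8 mature libraries, limma-voom, the replicate block, and leaving out replicate 1, 3 or 4 of flox/flox or replicate 2, 3 or 4 of flox/WT. When flox/flox replicate 2 was left out, 8 members fell. Of 22 tricarboxylic acid cycle genes 3 fell and 0 rose (median -0.15). Fh1, fumarate hydratase, measured 190.3, 168, 166 and 174 CPM in flox/WT libraries and 121, 132, 111 and 125 CPM in flox/flox libraries (log2 change -0.51, SE 0.10, edgeR adjusted p = 0.000473), and it was the only fall left when replicate 1 or 3 of flox/flox or replicate 1 or 3 of flox/WT was taken out.

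Of secreted and angiogenic factors 5 of 10 tested members rose and 1 fell (median 0.78, the same with Stc2 at its bound). Epo, Edn1 and Pgf were at 0 counts in all 8 libraries. Vegfa, the vascular growth factor, measured 4.70, 4.91, 0.995 and 1.14 CPM in flox/WT libraries and 110.1, 129, 129 and 146 CPM in flox/flox libraries (log2 change 5.48, SE 0.28, edgeR adjusted p = 1.26e-14), and Adm, the vasodilator adrenomedullin, measured 4.58, 2.64, 2.24 and 1.62 CPM in flox/WT libraries and 49.9, 49.8, 34.5 and 30.3 CPM in flox/flox libraries (log2 change 3.90, SE 0.26, edgeR adjusted p = 1.06e-12). Mif, a cytokine of macrophages and B cells, measured 105, 148, 104 and 96.5 CPM in flox/WT libraries and 699, 1009, 761 and 755 CPM in flox/flox libraries (log2 change 2.83, SE 0.14, edgeR adjusted p = 1.69e-15), and Vegfb had a log2 change of 1.15. In all 4 the lowest flox/flox library was above the highest control library. The fall of Tgfb1 (-0.47, adjusted p = 0.0353) overlapped between genotypes, and the call did not survive the removal of any one of 6 libraries (replicates 1, 3 and 4 of flox/flox, and 1, 2 and 3 of flox/WT).

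In the list of prolyl, lysyl and histone lysyl hydroxylases 10 of 21 members rose and 0 fell (median 0.57, the same with P4ha2 at its bound). One of the rises was of P4hb, protein disulfide isomerase, a subunit of the collagen prolyl hydroxylase that is not itself a hydroxylase (log2 change 0.62). Besides P4ha2 and Plod2 they included P4ha1, the main catalytic subunit of the collagen prolyl hydroxylase, at 38.4, 26.0, 25.4 and 24.0 CPM in flox/WT libraries and 357, 255, 265 and 311 CPM in flox/flox libraries (log2 change 3.39, SE 0.16, edgeR adjusted p = 3.94e-16). Histone demethylases on the list were Kdm5b at 119, 103, 81.2 and 94.4 CPM in flox/WT libraries and 515, 396, 412 and 417 CPM in flox/flox libraries (log2 change 2.13, SE 0.12, edgeR adjusted p = 3.96e-14) and Kdm4b at 89.7 to 109.9 CPM in flox/WT libraries and 214 to 269 CPM in flox/flox (log2 change 1.34, SE 0.12, edgeR adjusted p = 1.27e-09). Jmjd6, a lysyl hydroxylase of splicing factors, had a log2 change of 1.21. Plod1, Kdm3b and Kdm4a did not pass, at -0.04, -0.34 and -0.39.

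Lipid genes rose in 4 of 17 cases with 0 falls (median 0.14). After Vldlr, the clearest was Hilpda, an inhibitor of lipolysis at lipid droplets, at 10.6, 9.06, 12.8 and 15.0 CPM in flox/WT libraries and 53.1, 103, 86.6 and 85.0 CPM in flox/flox libraries (log2 change 2.78, SE 0.23, edgeR adjusted p = 2.87e-10), and Fabp5, a fatty acid carrier, measured 5.35 to 10.5 CPM in flox/WT libraries and 14.5 to 17.5 CPM in flox/flox (log2 change 1.00, SE 0.19, edgeR adjusted p = 0.000319). The fatty acid translocase Cd36 (0.74, adjusted p = 0.037) overlapped, and any one of 5 libraries decided its call (replicates 1 and 3 of flox/flox, and 1, 2 and 4 of flox/WT). The droplet coat gene Plin2 (0.30) did not pass. Of 27 cholesterol and fatty acid synthesis genes 3 rose and 1 fell, and 4 fell without flox/flox replicate 4 and 2 without replicate 3 of flox/flox or replicate 2 or 3 of flox/WT. Srebf2, the transcription factor of cholesterol synthesis, measured 326, 318, 275 and 302 CPM in flox/WT libraries and 186, 177, 149 and 193 CPM in flox/flox libraries (log2 change -0.79, SE 0.11, edgeR adjusted p = 4.76e-06), while its target Hmgcs1 had a log2 change of 0.11 and did not pass. Elovl5 and Scd2, an elongase and a desaturase of fatty acids, rose by 0.59 and 0.72 on the log2 scale.

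Other hypoxia genes rose in 19 of 28 cases with 0 falls (median 2.00). Ndrg1, a stress-responsive cytoplasmic protein, measured 12.4, 7.04, 8.96 and 10.7 CPM in flox/WT libraries and 191, 208, 216 and 239 CPM in flox/flox libraries (log2 change 4.44, SE 0.18, edgeR adjusted p = 6.69e-18). Bhlhe40 and Bhlhe41, paired transcriptional repressors of the clock and of lymphocyte genes, both rose. Bhlhe40 measured 19.9, 22.8, 22.5 and 18.3 CPM in flox/WT libraries and 116, 108, 125 and 123 CPM in flox/flox libraries (log2 change 2.50, SE 0.14, edgeR adjusted p = 4.07e-14), and Bhlhe41 measured 2.65, 9.31, 7.22 and 4.76 CPM in flox/WT libraries and 55.2, 60.7, 99.3 and 62.1 CPM in flox/flox libraries (log2 change 3.54, SE 0.27, edgeR adjusted p = 1.15e-10). Ciart, a circadian repressor, measured 0.603, 1.26, 0.995 and 1.14 CPM in flox/WT libraries and 43.6, 47.0, 44.2 and 42.8 CPM in flox/flox libraries (log2 change 5.45, SE 0.26, edgeR adjusted p = 5.51e-16). Ero1l, the oxidase that forms disulfides in the endoplasmic reticulum, and Galk1, galactokinase, had log2 changes of 2.44 and 2.79. The hypoxia marker of many tumours, Car9, was low and did not pass, at 0.362 to 2.64 CPM in flox/WT libraries and 0.550 to 1.96 CPM in flox/flox (adjusted p = 0.591).

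Of 13 clock genes 5 rose and 0 fell (median 0.41), but 2 did without flox/flox replicate 1, and 3 without flox/WT replicate 3, without flox/WT replicate 4 or with the 8 mature libraries alone. Apart from Ciart, Nfil3, a repressor with roles in lymphocytes, measured 4.38 to 8.71 CPM in flox/WT libraries and 12.6 to 20.8 CPM in flox/flox (log2 change 1.36, SE 0.25, edgeR adjusted p = 0.000205). The core activators Clock (0.41) and Arntl (0.17) and Per1 (0.05) did not pass. Among mTOR brakes and amino acid sensors, Ddit4 (REDD1), an inhibitor of mTOR complex 1, measured 17.6, 18.6, 40.1 and 16.0 CPM in flox/WT libraries and 61.2, 103, 99.2 and 93.4 CPM in flox/flox libraries (log2 change 1.96, SE 0.28, edgeR adjusted p = 2e-05), and it was the only one of 12 called higher. The 3 members called lower, Nprl2, Nprl3 and Sesn1, numbered 1 without replicate 3 of flox/flox or replicate 3 or 4 of flox/WT, and 0 in a fit of the 8 mature libraries alone, and Nprl3 was also lost without flox/flox replicate 1.

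Amino acid response and transport genes rose in 5 of 18 cases and fell in 1 (median -0.04), or fell in 2 when replicate 1 or 4 of flox/flox or replicate 1, 2 or 3 of flox/WT was left out. The rises included genes of mitochondrial one-carbon metabolism and of cystine import. Mthfd1l measured 67.3, 46.2, 56.0 and 50.9 CPM in flox/WT libraries and 218, 221, 166 and 225 CPM in flox/flox libraries (log2 change 1.91, SE 0.14, edgeR adjusted p = 2.8e-11), Shmt2 measured 65.0 to 93.8 CPM in flox/WT libraries and 98.7 to 146 CPM in flox/flox (log2 change 0.69, SE 0.15, edgeR adjusted p = 0.00223), and Slc7a11, the cystine transporter, measured 5.19, 2.64, 2.61 and 2.00 CPM in flox/WT libraries and 7.93, 10.0, 21.5 and 11.9 CPM in flox/flox libraries (log2 change 2.05, SE 0.49, edgeR adjusted p = 0.00423). Slc3a2, its partner chain, fell, at 138 to 171 CPM in flox/WT libraries and 110.4 to 123 CPM in flox/flox (log2 change -0.39, SE 0.10, edgeR adjusted p = 0.00925). Trib3, a stress-induced pseudokinase, measured 0.746 to 2.95 CPM in flox/WT libraries and 5.81 to 12.3 CPM in flox/flox, and the stress regulator Atf4 (-0.60) and its target Asns (0.64) did not pass. Of 20 aminoacyl-tRNA synthetases, Dars, for aspartate, was the one called higher, at 187, 149.8, 154 and 149 CPM in flox/WT libraries and 289, 333, 329 and 277 CPM in flox/flox libraries (log2 change 0.94, SE 0.11, edgeR adjusted p = 1.28e-07).

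**Figure D4:**
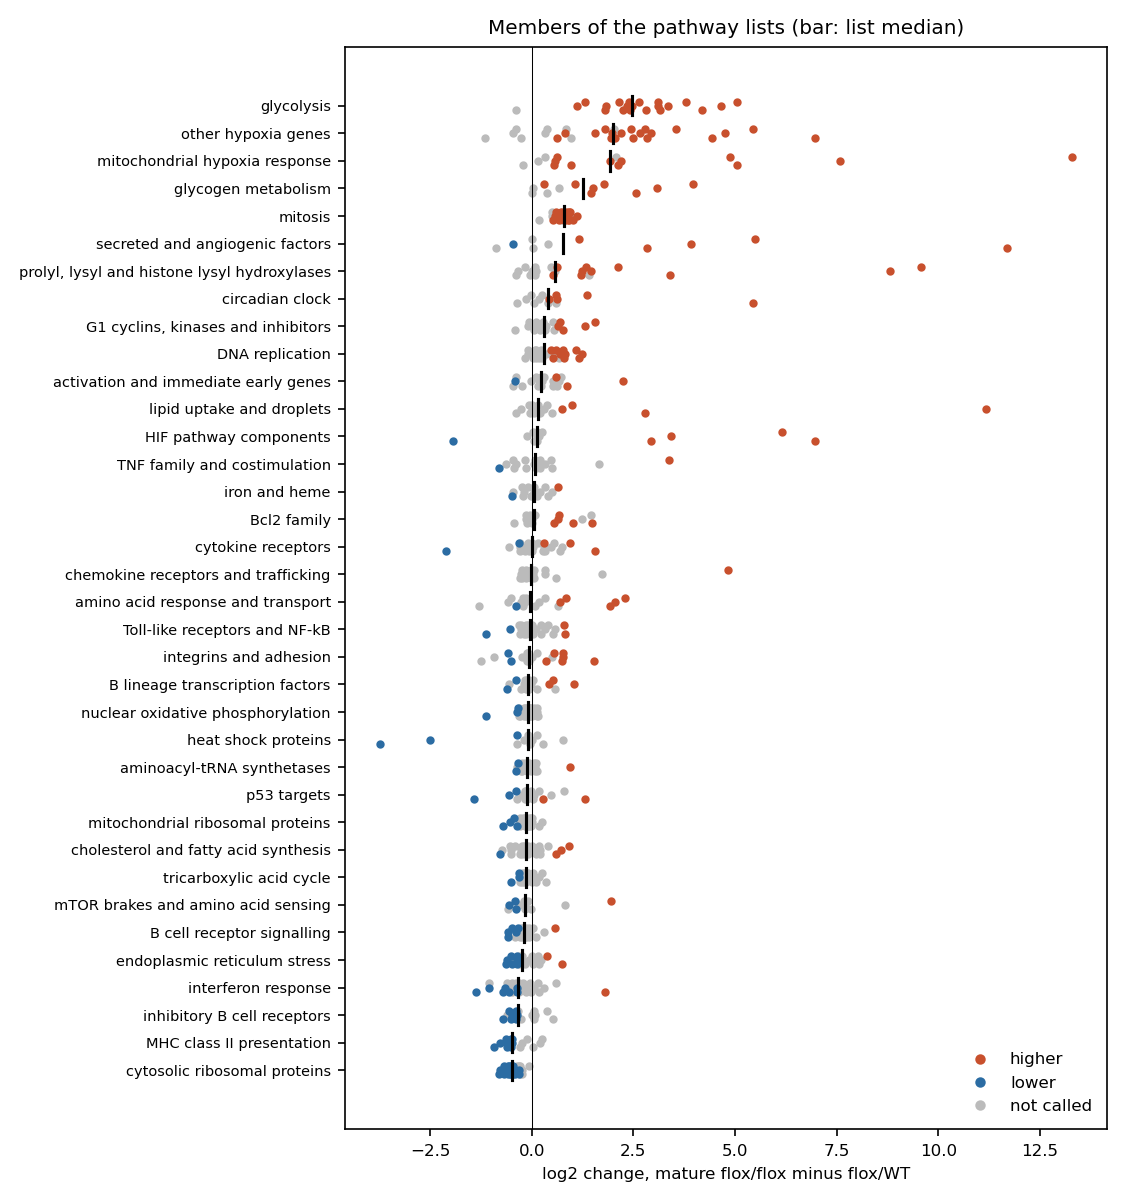
Log2 change between genotypes in mature cells (x axis) of each tested member of the pathway lists (y axis, ordered by median), orange for members called higher, blue for members called lower, grey for members not called, and a black bar at the list median. Medians run from 2.46 for glycolysis to -0.49 for cytosolic ribosomal proteins.

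The 12 largest falls included Vhl itself. Sdc1 (syndecan-1), a surface proteoglycan known as a plasma cell antigen, measured 24.1, 36.7, 26.6 and 38.0 CPM in flox/WT libraries and 5.83, 5.70, 3.28 and 7.82 CPM in flox/flox libraries (log2 change -2.48, SE 0.24, edgeR adjusted p = 6.26e-09). Il5ra, the interleukin-5 receptor chain found on B-1 and other B cells, measured 46.2, 40.9, 40.2 and 44.1 CPM in flox/WT libraries and 8.81, 4.30, 12.0 and 14.9 CPM in flox/flox libraries (log2 change -2.10, SE 0.24, edgeR adjusted p = 1.95e-07). Each control library was above 20 CPM in both genes, and each flox/flox library was below 15 CPM. Rapgef4, an exchange factor activated by cyclic AMP, measured 39.7, 66.5, 57.0 and 69.1 CPM in flox/WT libraries and 17.2, 11.3, 20.5 and 18.9 CPM in flox/flox libraries (log2 change -1.77, SE 0.33, edgeR adjusted p = 0.000378), and Pde4c, a phosphodiesterase that degrades cyclic AMP, had 21 counts in control and 0 in flox/flox libraries, at least 7.25-fold lower. Col5a3, a collagen chain, measured 2.41, 3.27, 5.85 and 6.00 CPM in flox/WT libraries and 0, 0.323, 0.528 and 0.611 CPM in flox/flox libraries (log2 change -3.57, SE 0.69, edgeR adjusted p = 0.000859), a call that limma-voom, fitted with a random effect for the mouse, did not make (adjusted p = 0.0593). Slc52a3, a riboflavin transporter, Snx32, a sorting nexin, and Irgc1, of the immunity-related GTPase family, had log2 changes of -1.62, -1.53 and -1.49.

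Histone genes of the replication-dependent clusters made up 3 of the 12. Hist1h4n measured 17.2, 14.7, 10.5 and 14.9 CPM in flox/WT libraries and 5.61, 2.91, 4.12 and 5.26 CPM in flox/flox libraries (log2 change -1.68, SE 0.27, edgeR adjusted p = 5.42e-05), Hist1h4m measured 10.4, 8.55, 7.84 and 8.38 CPM in flox/WT libraries and 3.41, 2.80, 2.22 and 2.81 CPM in flox/flox libraries (log2 change -1.64, SE 0.26, edgeR adjusted p = 3.34e-05), and Hist1h3a had a log2 change of -1.72, a call that limma-voom did not make (adjusted p = 0.0774). Over all 64 tested symbols of this family 12 fell and 0 rose (median -0.53), yet their summed level overlapped, at 1749 to 2670.0 CPM in flox/WT libraries and 1646 to 2992 CPM in flox/flox libraries. These genes are near-identical copies, so each count is uncertain. Rn45s, the ribosomal RNA precursor, chosen after its values were seen, measured 5090.4, 8289, 3703 and 2852 CPM in flox/WT libraries and 2712, 1732, 2445 and 1906 CPM in flox/flox libraries (log2 change -1.18, SE 0.30, edgeR adjusted p = 0.00962). The controls of Rn45s spread over a wider range than the flox/flox libraries. Its part in other falls was not tested.

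Of 30 cytosolic ribosomal protein genes 22 fell and 0 rose (median -0.49), beside 6.62% of all genes, and 16 members were lower without overlap, beside 7.26%. Rpl4 measured 1024, 1135, 1049 and 1089 CPM in flox/WT libraries and 670, 628, 517 and 691 CPM in flox/flox libraries (log2 change -0.78, SE 0.10, edgeR adjusted p = 1.62e-06), Rps19 measured 1425, 1376, 1409 and 1170.5 CPM in flox/WT libraries and 797, 915, 633 and 748 CPM in flox/flox libraries (log2 change -0.80, SE 0.15, edgeR adjusted p = 0.000329), and Rpl8 measured 441 to 617 CPM in flox/WT libraries and 296 to 404 CPM in flox/flox (log2 change -0.69, SE 0.12, edgeR adjusted p = 0.0001). Each was lower in all flox/flox libraries. Rpl22, Rpl23 and Rps2 did not pass, with log2 changes of -0.25, -0.29 and -0.31. The falls numbered 17 or more without any single library, and processed copies of these genes make each count uncertain. Of 26 mitochondrial ribosomal protein genes 4 fell and 0 rose (median -0.14), among them Mrpl11 at -0.71 and Mrpl4 at -0.54, and 2 fell without replicate 3 of flox/flox or replicate 3 of flox/WT.

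Of 15 antigen presentation genes of MHC class II 9 fell and 0 rose (median -0.48), beside 6.62% and 9.69% of all genes, and 7 fell without flox/flox replicate 1. Ciita, the transactivator of the class II genes, measured 489.8, 483, 567 and 681 CPM in flox/WT libraries and 252, 276, 244 and 399 CPM in flox/flox libraries (log2 change -0.92, SE 0.16, edgeR adjusted p = 0.00013). It overlaps Dexi in the annotation. Cd74, the invariant chain, measured 35774, 43902, 30885 and 29169 CPM in flox/WT libraries and 21856, 27223, 20888 and 21305 CPM in flox/flox libraries (log2 change -0.61, SE 0.16, edgeR adjusted p = 0.00812), and H2-Ab1, a chain of the class II molecule I-A, measured 8885, 9164, 8798 and 8126 CPM in flox/WT libraries and 5048, 7138, 5051 and 5313 CPM in flox/flox libraries (log2 change -0.63, SE 0.13, edgeR adjusted p = 0.000832). H2-Eb1 and H2-Aa had log2 changes of -0.78 and -0.60, and H2-DMa, a chain of the peptide exchange factor, one of -0.51. These 6 were among 9 members of the list that were lower without overlap, beside 7.26% of all genes. H2-Ob (-0.13), which encodes a chain of an inhibitor of peptide exchange, and the class II promoter factors Rfx5 (-0.29) and Rfxap (0.25) did not pass. The summed follicular B cell markers were lower in all flox/flox libraries, as given above, and their part in these falls was not tested.

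In the list of B cell receptor signalling genes, 5 of 24 fell and 1 rose (median -0.20), or 2 rose without flox/flox replicate 3. The kinase genes Blk, Btk and Prkcb had log2 changes of -0.59, -0.40 and -0.49, with edgeR adjusted p of 0.000758, 0.00483 and 0.00679. Pik3ap1 (BCAP), an adaptor for phosphoinositide 3-kinase, was the member that rose, at 235, 203, 214 and 211 CPM in flox/WT libraries and 335, 335, 269 and 347 CPM in flox/flox libraries (log2 change 0.58, SE 0.12, edgeR adjusted p = 0.000875). Cd79a, the gene that carries the Cre knock-in, did not pass, at 1572 to 2446 CPM in flox/WT libraries and 1394 to 1689.5 CPM in flox/flox (adjusted p = 0.0959). Of 16 genes in a list headed inhibitory B cell receptors 7 fell and 0 rose (median -0.35), or 4 fell without flox/WT replicate 4. Not all genes of that list are inhibitory receptors, and Fcrl1 and Fcrla are among those that are not. Fcrl1 measured 209, 248, 226 and 233 CPM in flox/WT libraries and 144, 142, 144 and 127 CPM in flox/flox libraries (log2 change -0.72, SE 0.12, edgeR adjusted p = 0.000111), Fcrla measured 432 to 490.3 CPM in flox/WT libraries and 313 to 329 CPM in flox/flox, Cd72 measured 290.2 to 317 CPM in flox/WT libraries and 189 to 233 CPM in flox/flox, and Fcgr2b, the inhibitory Fc receptor, measured 136 to 149 CPM in flox/WT libraries and 97.4 to 126 CPM in flox/flox (log2 change -0.38, SE 0.11, edgeR adjusted p = 0.0139). None of these 4 overlapped.

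Of 20 B lineage transcription factors 3 rose and 2 fell (median -0.09), close to the 9.69% and 6.62% of all genes, or 1 fell without replicate 1 of flox/flox or replicate 2 of flox/WT. Id2, an inhibitor of E proteins, measured 17.0, 16.6, 20.3 and 14.2 CPM in flox/WT libraries and 26.6, 47.5, 37.9 and 27.9 CPM in flox/flox libraries (log2 change 1.04, SE 0.17, edgeR adjusted p = 7.07e-05), and the coactivator Pou2af1 (OBF-1) measured 827, 863, 755 and 728 CPM in flox/WT libraries and 1071, 1087, 1314 and 1112 CPM in flox/flox libraries (log2 change 0.53, SE 0.11, edgeR adjusted p = 0.000787). Bcl6, a transcriptional repressor required for the germinal centre programme, measured 217, 204, 143 and 157 CPM in flox/WT libraries and 117, 127, 129 and 98.9 CPM in flox/flox libraries (log2 change -0.61, SE 0.16, edgeR adjusted p = 0.00772). The identity factors Pax5 (-0.18), Ebf1 (-0.20) and Tcf3 (-0.07) did not pass. Of 16 follicular B cell markers 3 fell and 0 rose (median -0.20), and 1 fell without replicate 2 of flox/flox or replicate 4 of flox/WT. Ly6d measured 1722 to 2179 CPM in flox/WT libraries and 1235 to 1644 CPM in flox/flox (log2 change -0.49, SE 0.13, edgeR adjusted p = 0.0102), and Fcer2a (adjusted p = 0.838), Cr2 (0.591) and Ms4a1 (0.145) did not pass.

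Marginal zone and B-1 cell markers had 2 of 15 higher and 2 lower, close to the shares of all genes, or 1 lower without replicate 3 of flox/flox or replicate 3 of flox/WT. Besides Bhlhe41, Cd9, a tetraspanin, measured 71.2, 46.8, 62.0 and 51.1 CPM in flox/WT libraries and 88.8, 119, 95.2 and 91.8 CPM in flox/flox libraries (log2 change 0.77, SE 0.17, edgeR adjusted p = 0.00144), while Plac8, a marker of circulating B-1 and other leukocytes, measured 266, 289, 427 and 371 CPM in flox/WT libraries and 168, 214, 211 and 200.3 CPM in flox/flox libraries (log2 change -0.77, SE 0.20, edgeR adjusted p = 0.00937). The receptors Cd1d1 (0.29) and S1pr3 (0.06) did not pass. Of 15 plasma cell markers, Sdc1 fell and 1 rose, a rise lost without replicate 3 or 4 of flox/flox or replicate 1, 3 or 4 of flox/WT, and 2 fell without flox/flox replicate 1. The plasma cell regulators Prdm1 (0.65), Xbp1 (0.04) and Irf4 (0.09) did not pass. Summed levels of the plasma cell and the marginal zone lists overlapped between genotypes.

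Pro-B and pre-B markers rose in 6 of 20 cases with 0 falls (median 0.78), beside 9.69% and 6.62% of all genes. DESeq2 called 10 higher, the fit of the 8 mature libraries alone 5, and the fit without flox/flox replicate 2 called 4. Lef1, a transcription factor of early lymphoid cells, measured 14.6, 18.9, 15.3 and 17.2 CPM in flox/WT libraries and 69.2, 88.8, 69.0 and 65.6 CPM in flox/flox libraries (log2 change 2.15, SE 0.18, edgeR adjusted p = 3.15e-10). Igll1, the surrogate light chain of the pre-B receptor, measured 11.1, 5.53, 5.35 and 5.62 CPM in flox/WT libraries and 16.6, 32.2, 19.8 and 26.5 CPM in flox/flox libraries (log2 change 1.79, SE 0.36, edgeR adjusted p = 0.00152), and Myb, a progenitor transcription factor, measured 10.5 to 23.6 CPM in flox/WT libraries and 30.1 to 34.5 CPM in flox/flox (log2 change 0.83, SE 0.16, edgeR adjusted p = 0.000517). The summed level of the list was 408 to 579 CPM in flox/WT libraries and 571 to 649 CPM in flox/flox libraries and overlapped. For other surrogate light chain genes the test was not passed, with Vpreb1 at 6.09 to 8.68 CPM in flox/WT libraries and 11.1 to 19.2 CPM in flox/flox (adjusted p = 0.0524) and Vpreb3 at 115 to 206 CPM in flox/WT libraries and 164 to 190.1 CPM in flox/flox (adjusted p = 0.212). The part of such cells in the sort was not tested.

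Natural killer markers rose in 3 of 12 cases (median 0.61), beside 9.69% of all genes. Prf1, perforin, measured 4.70, 5.79, 3.11 and 3.90 CPM in flox/WT libraries and 14.4, 20.9, 15.6 and 19.1 CPM in flox/flox libraries (log2 change 2.00, SE 0.33, edgeR adjusted p = 5.88e-05). The lineage receptor genes Klrb1c and Ncr1 were also called higher, at low levels and with overlap. Klrb1c measured 0.724 to 2.76 CPM in flox/WT libraries and 2.15 to 7.29 CPM in flox/flox. Ncr1 measured 0.121 to 1.24 CPM in flox/WT libraries and 1.21 to 3.06 CPM in flox/flox. Fits of the 8 mature libraries alone and with limma-voom each called 1 member, Klrb1c was not called without flox/flox replicate 3, and Ncr1 was not called without replicate 2 or 3 of flox/flox or replicate 1 or 2 of flox/WT. Of 14 T cell markers 1 rose, near the 9.69% of all genes, or 2 without replicate 1 or 3 of flox/flox or replicate 2 of flox/WT. It was Zap70, a kinase of antigen receptor signalling, at 2.77, 2.64, 2.36 and 2.00 CPM in flox/WT libraries and 9.25, 14.4, 9.09 and 10.1 CPM in flox/flox libraries (log2 change 2.13, SE 0.26, edgeR adjusted p = 5.29e-07), while the T cell receptor complex genes Cd3e (2.12 to 6.04 CPM in flox/WT libraries and 3.19 to 8.29 CPM in flox/flox), Cd3d and Cd3g were low in both genotypes and did not pass. Erythroid markers had 2 of 15 higher (median 0.96), near the 9.69% of all genes, and 0 were higher without overlap. The count was 1 without flox/flox replicate 3, 4 without flox/flox replicate 4 and 3 without replicate 1 or 4 of flox/WT. DESeq2 called 4 higher, the fit of the 8 mature libraries alone 1, and the filter of 10 CPM in 4 libraries 3 of 11 tested. Among the erythroid rises, Car2 overlapped between the genotypes and lost its call in the fit of the 8 mature libraries. Of 20 neutrophil and monocyte markers 0 were called by edgeR (median 0.27), 0 by DESeq2 and 0 by limma-voom, with 2 at an unadjusted p under 0.05, and 2 rose without flox/flox replicate 4 or flox/WT replicate 1 or 2. S100a8 measured 2695 to 3739 CPM in flox/WT libraries and 2741 to 6444 CPM in flox/flox. The part of these cell types in other results was not tested.

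Integrin and adhesion genes rose in 6 of 19 cases and fell in 2 (median -0.08). Itgb3, the beta chain of the vitronectin receptor, measured 18.0, 17.0, 19.7 and 16.4 CPM in flox/WT libraries and 51.3, 48.8, 53.3 and 52.8 CPM in flox/flox libraries (log2 change 1.54, SE 0.24, edgeR adjusted p = 3.17e-05). Cd44, the hyaluronan receptor, measured 145, 126, 94.7 and 99.5 CPM in flox/WT libraries and 187, 168, 251 and 175 CPM in flox/flox libraries (log2 change 0.75, SE 0.13, edgeR adjusted p = 0.00018), and Itga6, a laminin receptor chain, measured 43.5, 33.5, 36.1 and 38.6 CPM in flox/WT libraries and 66.9, 56.4, 63.5 and 71.6 CPM in flox/flox libraries (log2 change 0.77, SE 0.14, edgeR adjusted p = 0.000207). Itgb1, the shared beta chain, had a log2 change of 0.55, Icam2, a ligand of lymphocyte integrins, fell by 0.59 on the log2 scale, and Itga4 (-0.25) and Itgal (-0.09) did not pass. Of 18 chemokine receptor and trafficking genes, Ackr3 (CXCR7), a scavenger receptor of the chemokine Cxcl12, was the one called, at 0.241, 1.01, 0 and 0.0952 CPM in flox/WT libraries and 8.81, 11.9, 9.19 and 7.70 CPM in flox/flox libraries (log2 change 4.82, SE 0.62, edgeR adjusted p = 1.54e-06), and another joined it without replicate 2 of flox/flox or replicate 3 of flox/WT. Cxcr4, the signalling receptor for the same chemokine, measured 48.2 to 121 CPM in flox/WT libraries and 45.0 to 106 CPM in flox/flox and did not pass (adjusted p = 0.778), nor did Cxcr5 (adjusted p = 0.35).

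Several lists of receptors and signals had shares of calls near the background of 9.69% and 6.62%, and their small counts moved with single libraries. Of 25 cytokine receptors 3 rose (1 without flox/WT replicate 3) and 2 fell (1 without flox/flox replicate 1). Besides Il5ra, the receptor tyrosine kinase Flt3 measured 3.86, 2.77, 2.74 and 3.62 CPM in flox/WT libraries and 8.81, 13.5, 9.62 and 6.48 CPM in flox/flox libraries (log2 change 1.56, SE 0.25, edgeR adjusted p = 5.47e-05). Of 18 TNF family and costimulation genes 1 rose and 1 fell, or 2 fell without flox/WT replicate 2. Tnfsf9 (4-1BB ligand) measured 4.34, 4.65, 2.61 and 1.14 CPM in flox/WT libraries and 34.1, 30.5, 32.1 and 32.9 CPM in flox/flox libraries (log2 change 3.36, SE 0.33, edgeR adjusted p = 1.02e-08) and overlaps Gm11110 in the annotation, and Tnfrsf13b (TACI), a receptor for BAFF and APRIL, measured 124, 123, 135 and 136 CPM in flox/WT libraries and 70.9, 90.7, 47.8 and 86.2 CPM in flox/flox libraries (log2 change -0.81, SE 0.14, edgeR adjusted p = 0.000106). The BAFF receptor Tnfrsf13c (-0.14) and Cd40 (-0.16) did not pass.

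Of 25 Toll-like receptor and NF-kB genes 2 rose and 2 fell, or 1 fell without replicate 1 or 2 of flox/flox or replicate 3 or 4 of flox/WT. Tnfaip3 (A20), an inhibitor of NF-kB, measured 57.1 to 69.8 CPM in flox/WT libraries and 86.4 to 143 CPM in flox/flox (log2 change 0.80, SE 0.14, edgeR adjusted p = 0.000144), and Ly86 (MD-1), a partner of a Toll-like receptor homologue, measured 319 to 371 CPM in flox/WT libraries and 212 to 251 CPM in flox/flox (log2 change -0.54, SE 0.13, edgeR adjusted p = 0.00309). Of 20 activation and immediate early genes 3 rose and 1 fell. The rises numbered 5 without flox/WT replicate 3, and the fall was lost without replicate 1 or 3 of flox/flox or replicate 3 or 4 of flox/WT, while 2 fell without replicate 4 of flox/flox or replicate 1 of flox/WT. Egr1, an early transcription factor of receptor signalling, measured 30.3 to 46.0 CPM in flox/WT libraries and 48.2 to 60.0 CPM in flox/flox (log2 change 0.60, SE 0.13, edgeR adjusted p = 0.00176), and Fos (0.25) and Jun (-0.47) did not pass. Iron and heme genes had 1 of 15 lower, or 3 without flox/flox replicate 2, and 1 higher, or between 0 and 2 when any single library other than flox/flox replicate 2 was left out. Fth1, ferritin heavy chain, was the fall, at 2316 to 3276 CPM in flox/WT libraries and 1726 to 2209 CPM in flox/flox (log2 change -0.48, SE 0.11, edgeR adjusted p = 0.00239).

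Mitosis genes rose in 18 of 26 cases and fell in 0 (median 0.79), beside 9.69% and 6.62% of all genes, and 11 were higher without overlap, beside 9.01%. The rises were moderate, with a largest log2 change of 1.11. Ccnb2, cyclin B2, measured 24.1, 21.8, 14.8 and 14.1 CPM in flox/WT libraries and 37.9, 42.4, 33.3 and 29.2 CPM in flox/flox libraries (log2 change 0.94, SE 0.16, edgeR adjusted p = 7.98e-05). Bub1b, a checkpoint kinase, measured 24.2, 24.9, 12.4 and 13.4 CPM in flox/WT libraries and 50.4, 47.2, 30.0 and 33.1 CPM in flox/flox libraries (log2 change 1.11, SE 0.24, edgeR adjusted p = 0.00208), and Kif11, a spindle motor, measured 17.1, 27.8, 15.2 and 13.8 CPM in flox/WT libraries and 42.9, 37.3, 33.5 and 33.9 CPM in flox/flox libraries (log2 change 1.00, SE 0.21, edgeR adjusted p = 0.00147). In Ccnb2 and Bub1b, flox/WT replicates 3 and 4 lay below flox/WT replicates 1 and 2. The summed level of the list split the controls in the same way, at 657, 665, 334 and 391 CPM in flox/WT libraries and 690 to 989 CPM in flox/flox libraries. Mki67, the proliferation antigen, measured 8.83 to 42.0 CPM in flox/WT libraries and 24.6 to 43.4 CPM in flox/flox libraries and did not pass (adjusted p = 0.538). Pro-B and pre-B marker sums (408 to 579 CPM in control and 571 to 649 CPM in flox/flox libraries) ran higher in flox/flox mature cells, and their part in these rises was not tested. The rises numbered 11 without flox/WT replicate 3, and 9 when only the 8 mature libraries were fitted.

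DNA replication genes rose in 10 of 26 cases with 0 falls (median 0.30), beside 9.69% and 6.62% of all genes. Their summed level overlapped between genotypes, at 2080, 1852, 1426 and 1482 CPM in flox/WT libraries and 1784 to 2325 CPM in flox/flox libraries, with flox/WT replicates 3 and 4 below the other controls. Rrm2, a ribonucleotide reductase subunit, measured 82.6, 63.1, 36.1 and 44.9 CPM in flox/WT libraries and 134, 148, 111 and 84.6 CPM in flox/flox libraries (log2 change 1.08, SE 0.19, edgeR adjusted p = 0.000258), and Mcm10, a replication initiation factor, measured 3.24 to 7.36 CPM in flox/WT libraries and 7.46 to 15.3 CPM in flox/flox (log2 change 1.22, SE 0.30, edgeR adjusted p = 0.00601). The helicase subunits Mcm2 (0.17), Mcm3 (0.55) and Mcm4 (0.08) did not pass. The count was 5 without flox/flox replicate 1, 4 without replicate 2 of flox/flox or replicate 3 of flox/WT, and 6 without flox/WT replicate 4, and 4 with the 8 mature libraries alone. Of 18 G1 regulators 5 rose and 0 fell (median 0.30). Ccnd2, cyclin D2, measured 23.6, 51.8, 32.8 and 36.5 CPM in flox/WT libraries and 104, 99.9, 119.7 and 103 CPM in flox/flox libraries (log2 change 1.56, SE 0.19, edgeR adjusted p = 5.23e-07), and Cdkn1a (p21), an inhibitor of cyclin-dependent kinases, measured 5.07, 5.66, 3.48 and 3.14 CPM in flox/WT libraries and 12.6, 9.79, 10.3 and 10.1 CPM in flox/flox libraries (log2 change 1.31, SE 0.25, edgeR adjusted p = 0.000453). A cyclin and a kinase inhibitor thus both rose. E2f1 and E2f2 rose by 0.77 and 0.69 on the log2 scale, and Cdk4 (0.10) and Ccnd3 (0.51) did not pass.

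Bcl2 family genes rose in 5 of 16 cases with 0 falls (median 0.04), beside 9.69% and 6.62% of all genes. The rises held killers and protectors of cells alike. Bbc3 (Puma), a BH3-only killer, measured 2.89, 4.65, 4.11 and 5.14 CPM in flox/WT libraries and 7.49, 13.6, 15.2 and 11.1 CPM in flox/flox libraries (log2 change 1.49, SE 0.25, edgeR adjusted p = 6.94e-05), and Pmaip1 (Noxa), another, measured 21.1 to 29.3 CPM in flox/WT libraries and 40.0 to 65.7 CPM in flox/flox (log2 change 1.02, SE 0.22, edgeR adjusted p = 0.00169). Bcl2, which protects cells, measured 84.3, 132, 121 and 122 CPM in flox/WT libraries and 165, 169, 196 and 183 CPM in flox/flox libraries (log2 change 0.63, SE 0.15, edgeR adjusted p = 0.00364), and Bcl2l11 (Bim), which binds it, rose by 0.56 on the log2 scale (edgeR adjusted p = 0.00416). Mcl1, an abundant protector, did not pass, at 1007 to 1106 CPM in flox/WT libraries and 906 to 1214 CPM in flox/flox (adjusted p = 0.952). Of 19 p53 targets 2 rose and 3 fell, beside 9.69% and 6.62% of all genes. The falls numbered 0 without flox/flox replicate 3 and 1 without flox/WT replicate 3 or 4, and Cdkn1a was the one rise left when any flox/flox library or flox/WT replicate 1 or 2 was taken out. Trp53 itself did not pass (-0.16).

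Among 28 interferon response genes 7 fell and 1 rose (median -0.35). Gbp3, a guanylate-binding protein, measured 65.0, 80.8, 88.8 and 75.4 CPM in flox/WT libraries and 28.3, 28.6, 28.0 and 34.0 CPM in flox/flox libraries (log2 change -1.38, SE 0.14, edgeR adjusted p = 2.1e-08), and Oasl1 measured 25.8 to 36.2 CPM in flox/WT libraries and 12.7 to 16.7 CPM in flox/flox (log2 change -1.06, SE 0.23, edgeR adjusted p = 0.00176). Stat2, a transcription factor of the pathway, measured 107 to 175 CPM in flox/WT libraries and 76.5 to 106 CPM in flox/flox (log2 change -0.65, SE 0.16, edgeR adjusted p = 0.00501). Ifi44 rose from a low level, at 0.362, 1.13, 1.24 and 1.33 CPM in flox/WT libraries and 1.98, 3.87, 5.28 and 3.18 CPM in flox/flox libraries (log2 change 1.79, SE 0.48, edgeR adjusted p = 0.00977). Irf7 (-0.39) and Isg15 (-0.50) did not pass, and the falls numbered 4 without replicate 1 or 4 of flox/flox or replicate 4 of flox/WT. Among 22 endoplasmic reticulum stress genes 7 fell and 2 rose (median -0.24), with 4 falls without flox/flox replicate 3 and 1 rise without replicate 1 or 2 of flox/flox or replicate 3 or 4 of flox/WT. Calr, a chaperone, measured 546 to 731 CPM in flox/WT libraries and 418 to 516 CPM in flox/flox (log2 change -0.49, SE 0.11, edgeR adjusted p = 0.00194), Manf measured 80.8 to 117 CPM in flox/WT libraries and 53.7 to 73.3 CPM in flox/flox (log2 change -0.52, SE 0.13, edgeR adjusted p = 0.00584), and Hspa5 (BiP) did not pass (adjusted p = 0.129). Of 11 heat shock genes 3 fell, among them Hspa1a at 55.2, 1.89, 1.12 and 40.5 CPM in flox/WT libraries and 3.19, 0.538, 1.37 and 2.32 CPM in flox/flox libraries. Its flox/WT replicates 1 and 4 were high and the other 2 overlapped flox/flox libraries, and its call was lost without either of those 2 libraries, without flox/flox replicate 2 or 3, in the fit of the 8 mature libraries (adjusted p = 0.155) and in limma-voom (adjusted p = 0.253). The heat shock falls numbered 0 in both of those fits and without flox/WT replicate 1.

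The response of mature cells was then compared with that of immature and proBpreB cells of the same mice, as the difference of genotype effects in one fit. Against immature cells, 708 genes had a higher change in mature cells (5.51%) and 287 a lower one (2.23%). Against proBpreB cells the counts were 292 (2.27%) and 101 (0.786%). Of the 2096 genes called in mature cells, 458 also differed from immature and 315 from proBpreB cells in their response. Each difference contains the mature genotype effect, so genes called in mature cells are favoured in it by construction.

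All 26 mitosis genes and 21 of 26 DNA replication genes had a higher change in mature than in immature cells, beside 5.51% of all genes. Shcbp1, a protein of the dividing cell, measured 7.62 ± 2.08 CPM in control and 16.6 ± 1.27 CPM in flox/flox mature cells (SD, n = 4 each). In immature cells it measured 53.7 ± 5.25 and 14.0 ± 3.18 CPM, and the log2 difference of the effects was 3.06 (SE 0.22, edgeR adjusted p = 3.2e-10). In Ccnb2 the mature means were 18.7 ± 5.00 and 35.7 ± 5.70 CPM and the immature means 102 ± 16.8 and 31.3 ± 5.07 CPM (2.64, SE 0.22, edgeR adjusted p = 2.37e-09). The direction was opposite in the 2 populations. In immature cells the flox/flox mean was below the control mean, and in mature cells it was above it. Esco2, a cohesin acetyltransferase (2.85, SE 0.23, edgeR adjusted p = 2.37e-09), and Cdca3, a mitotic entry factor (2.48, SE 0.21, edgeR adjusted p = 2.37e-09), differed in the same way. So did the kinetochore genes Spc24 (2.81, SE 0.24, edgeR adjusted p = 2.9e-09) and Spc25 (2.37, SE 0.20, edgeR adjusted p = 2.9e-09). In mature cells alone, Esco2 rose by 0.74, a call that the 8 mature libraries alone did not give (adjusted p = 0.053).

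Bhlhe40 had another pattern. In control cells it measured 6.02 ± 1.31 CPM in proBpreB, 101 ± 20.3 CPM in immature and 20.9 ± 2.16 CPM in mature cells, and in flox/flox cells 18.9 ± 1.68, 111 ± 12.6 and 118 ± 7.76 CPM. Immature controls were already near the flox/flox level, and mature controls were not (difference of effects 2.36, SE 0.19, edgeR adjusted p = 2.37e-09).

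The 8 genes named for their difference from proBpreB cells included 5 of the hypoxia lists, all with a larger change in mature cells. Ndrg1 measured 9.77 ± 2.30 and 214 ± 19.8 CPM in mature control and flox/flox cells, and 21.5 ± 2.37 and 57.2 ± 2.44 CPM in proBpreB cells (3.03, SE 0.23, edgeR adjusted p = 1.22e-09). In Egln3 the proBpreB means were 4.04 ± 0.614 and 89.0 ± 11.2 CPM (2.50, SE 0.24, edgeR adjusted p = 2.04e-07), and in Pfkfb3 they were 40.6 ± 8.05 and 114 ± 6.10 CPM (1.62, SE 0.16, edgeR adjusted p = 3.51e-07). Control levels were higher and flox/flox levels lower in proBpreB than in mature cells for all 3. Vegfa (3.08, SE 0.35, edgeR adjusted p = 3.77e-06) had proBpreB means of 17.4 ± 4.40 and 91.8 ± 8.41 CPM. Plod2 (4.18, SE 0.48, edgeR adjusted p = 3.77e-06) had a higher flox/flox mean in proBpreB cells, 78.6 ± 3.27 CPM, than in mature cells, 44.7 ± 1.81 CPM, and its larger fitted change in mature cells rests on 3 control counts. Smtnl2, of the smoothelin family, differed by 3.90, SE 0.36, edgeR adjusted p = 1.85e-07.

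In 2 of the 8 genes the proBpreB means lay in the opposite order. Atp1b1, the beta chain of the sodium pump, measured 28.9 ± 5.62 and 80.6 ± 9.53 CPM in mature and 435 ± 52.3 and 338 ± 49.4 CPM in proBpreB cells (1.84, SE 0.20, edgeR adjusted p = 1.09e-06). Tmem26, a membrane protein, measured 12.0 ± 3.88 and 33.7 ± 4.76 CPM in mature and 14.4 ± 2.08 and 7.55 ± 2.06 CPM in proBpreB cells (2.42, SE 0.26, edgeR adjusted p = 1.09e-06). Of 21 glycolysis genes 1 had a higher and 3 a lower change in mature than in immature cells, and 3 a higher and 3 a lower change than in proBpreB cells. These counts stand beside 5.51%, 2.23%, 2.27% and 0.786% of all genes. Of 30 cytosolic ribosomal protein genes 9 had a lower change in mature than in immature cells, and 3 a lower change than in proBpreB cells.

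**Figure D5:**
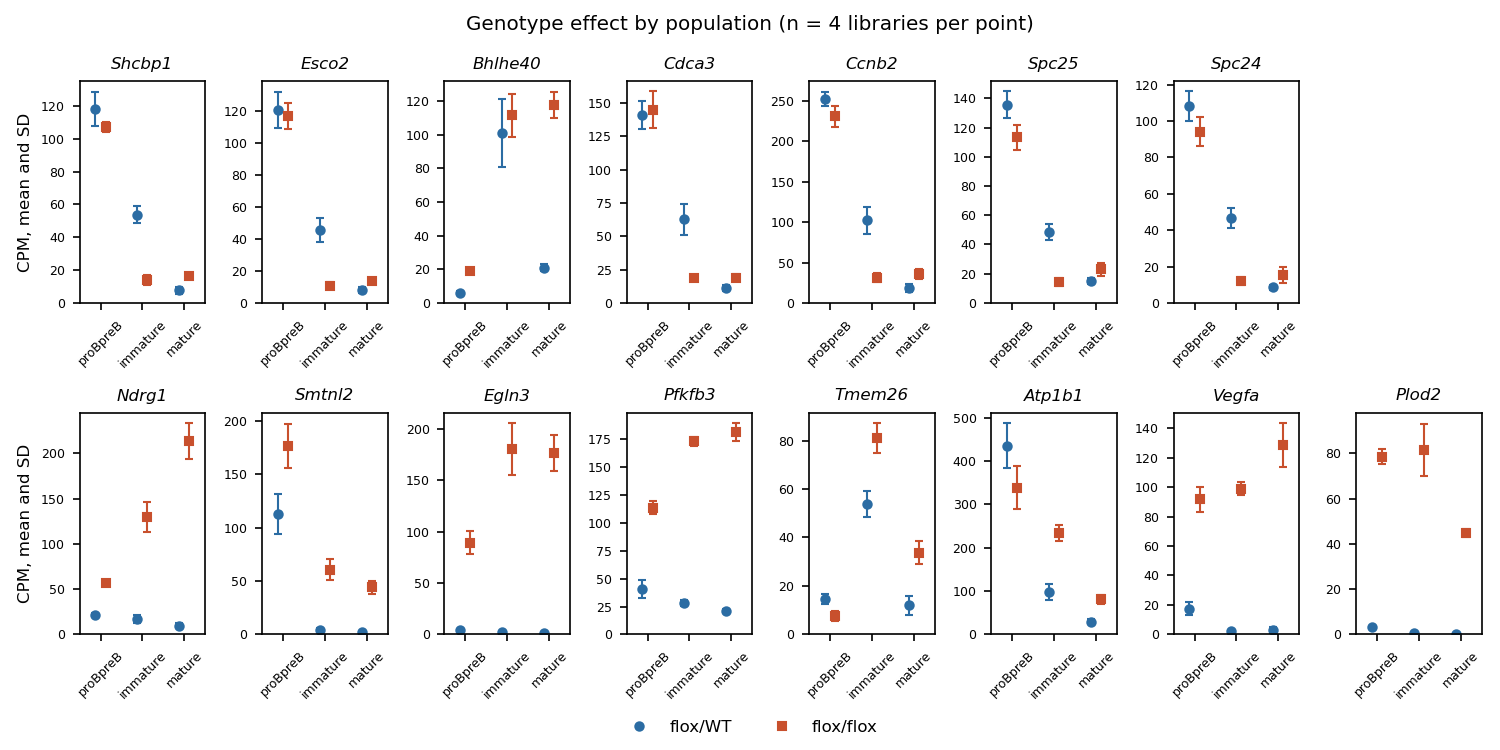
Mean CPM with SD (y axis, n = 4 libraries per point) of 15 genes in proBpreB, immature and mature cells (x axis), blue circles for flox/WT and orange squares for flox/flox. The upper row holds genes among those that differ most between mature and immature cells, where Ccnb2 falls in immature and rises in mature flox/flox cells, and the lower row those that differ most between mature and proBpreB cells.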

How the data were processed

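RNA of sorted bone marrow cells was extracted with a micro kit and made into low-input libraries, per the labels' protocols. The authors deposited whole-number counts per gene symbol for 24 libraries. HISAT2, featureCounts, Trim Galore, FastQC, CASAVA, DESeq2 and mm10 are named in the submitters' processing notes, with no settings; strand handling is not stated. A second deposited table, a rescaling of these counts, was not used.

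Counts were tested with edgeR 4.0.16 (R 4.3.3, limma 3.58.1): TMM factors, filterByExpr, robust quasi-likelihood fit of the 6 groups over all 24 libraries (18 residual degrees of freedom), Benjamini-Hochberg adjustment and a threshold of 0.05. Groups and mice came from the labels. The fit, tested on simulated data for the mature comparison (12715 genes), recovered 50%, 84%, 100% and 100% of changes of 1.5, 2, 4 and 8-fold. 4.57% of its calls were false. No low-count gene was among the changed ones, and simulated libraries of a mouse were independent. Neither share therefore covers genes near 0 counts or the likeness of libraries of a mouse. Replicates are separate mice, per the labels. No pair of mature libraries of the same genotype agreed within sampling noise (lowest chi-square per degree of freedom 8.48), and other pairs were not checked. Counting intervals are 95% and cover counting error only.

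Named genes are Vhl, all members of the HIF list, the 12 largest rises and 12 largest falls without overlap (mean log2 CPM 2 or more), up to 6 members per list that passed and 3 that did not, and 8 genes per difference. Some genes that this rule names are not reported here. Members and lists were chosen with earlier results of these data known. Libraries of the same mouse deviated together in 13 of 16 pairs (correlation over 0.1), so the differences between populations were also fitted with the mouse as a block. Alternatives were RLE factors, no filter, a filter of 10 CPM in 4 libraries, the 8 mature libraries alone, DESeq2 1.42.0, limma-voom (mouse as a random effect), replicate blocks, sex, and leaving out each mature library. Positions and promoters came from RefSeq GRCm38.p6, which matched 12174 of 12850 tested symbols.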

Additional observations from a re-analysis of the deposited data

Results flagged for a closer look

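In 36 of 456 groups of 4 libraries (228 genes in both genotypes), 1 library stood apart from the other 3, with a gap to its neighbour that took more of the group's range than Dixon's 95% critical value allows. Chance gives about 1 in 20 such groups, and the libraries were kept in all fits. The share of the range taken by the gap is given for each gene. In flox/WT replicate 1 it was 0.83 for Cd3g, 0.8418 for Cd72, 0.8839 for Dars, 0.9533 for Igll1, 0.9207 for Mcm2 and 0.8579 for P4ha1. The share in flox/WT replicate 2 was 0.8506 for Cd40, 0.9 for Egr1, 0.839 for Mif, 0.8838 for Mrpl4 and 0.9866 for Tcf4. For flox/WT replicate 3 it was 0.8292 for Aldoc, 0.8912 for Ddit4, 1.0 for Plod2, 0.8379 for Tmem26 and 1.0 for Vldlr. In flox/WT replicate 4 it was 1.0 for Arhgdig, 0.9205 for Btk, 1.0 for Cox4i2, 0.8634 for Pde4c and 1.0 for Rgs11. The share in flox/flox replicate 1 was 0.834 for Cdkn1a. For flox/flox replicate 2 it was 0.8472 for Cd74, 0.8991 for Cdk4, 0.8732 for H2-Ab1, 0.8444 for Lef1 and 0.9297 for Rpl8. In flox/flox replicate 3 it was 0.8428 for Bhlhe41, 0.8299 for Cd36, 0.8542 for Icam2, 0.8792 for Mthfd1l, 0.8774 for P4hb, 0.8417 for Pik3ap1 and 0.8337 for Pou2af1. The share in flox/flox replicate 4 was 0.837 for Fcrl1 and 0.896 for Gbp3. A value of 1.0 belongs to genes with counts in a single control library, Arhgdig, Cox4i2, Plod2, Rgs11 and Vldlr, all near 0 counts in controls.

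The genotype effect differed between populations, by the test of the difference, in the 15 genes named for it. The change in mature minus the change in immature cells was, on the log2 scale, 3.06 for Shcbp1, 2.85 for Esco2, 2.36 for Bhlhe40, 2.48 for Cdca3, 2.64 for Ccnb2, 2.37 for Spc25 and 2.81 for Spc24. Against proBpreB cells it was 3.03 for Ndrg1, 3.90 for Smtnl2, 2.50 for Egln3, 1.62 for Pfkfb3, 2.42 for Tmem26, 1.84 for Atp1b1, 3.08 for Vegfa and 4.18 for Plod2. All 15 differences kept their call in each of the 13 alternatives that gave one, and leaving out single immature or proBpreB libraries was not run.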

How the results depend on the processing

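No alternative reversed a gene named in the report, and 145 of the 159 named genes past the threshold kept their call in each alternative that tested them (all but the filter of 10 CPM, with 150, and the 8 mature libraries alone, with 158, tested all 159). Of the other 14, 9 lost it when a single mature library was left out, as given beside those genes. A fit of the 8 mature libraries alone tested 11690 genes and called 782 higher and 514 lower, of which 1255 were among the 2096 called in the fit of all 24. DESeq2 called 449 genes with a higher change in mature than in proBpreB cells, against 292, and the cause was not tested. Without single mature libraries, 1006 to 1306 genes were higher and 591 to 917 lower. In the same settings the differences from immature cells numbered 628 to 708 higher and 221 to 299 lower, and those from proBpreB cells 243 to 316 and 77 to 129. The share of rises among the calls ran from 57.5% to 64.2% over all settings, against 59.4%. For Vhl the permutation p was 0.0286 with all libraries, and without 1 library it was the smallest the design allows.

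A replicate block by number gave 1338 higher and 963 lower genes in mature cells. The numbers share no mouse between genotypes. Same-numbered mature libraries correlated at -0.03 to 0.43, over 0.1 in 3 of 4 pairs, and 3 of 4 flox/flox libraries correlated best with their own number. A replicate block by mouse, which pairs populations of the same animal, gave 756 and 332 genes that differed from immature cells and 343 and 141 from proBpreB cells, and changed no call of a difference named in the report. Depth limits genes near 0: levels under 0.286 to 0.377 CPM were not measurable in single libraries.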

Other observations

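Some lists not described above held few calls. Of 12 plasmacytoid dendritic cell markers 1 rose and 2 fell (median 0.12). The falls numbered 1 without flox/flox replicate 1 or 3, or without replicate 2, 3 or 4 of flox/WT, and the rises 2 without flox/flox replicate 4. Their summed level overlapped, at 984 to 1208 CPM in flox/WT libraries and 1082 to 1406 CPM in flox/flox libraries. Tcf4, a transcription factor of these cells and of B cells, was the rise, at 136, 205, 135 and 135 CPM in flox/WT libraries and 239, 206, 210.2 and 242 CPM in flox/flox libraries (log2 change 0.55, SE 0.12, edgeR adjusted p = 0.0014). Of 7 tested megakaryocyte markers 0 were called by edgeR, 0 by DESeq2 and 0 by limma-voom, with 1 at an unadjusted p under 0.05, and 1 rose without flox/WT replicate 1. Their sums were 18.1 to 40.2 CPM in flox/WT libraries and 14.2 to 66.0 CPM in flox/flox libraries. Of 20 aminoacyl-tRNA synthetases 2 fell, while 0 did without flox/flox replicate 3 or 4 and 1 did without flox/WT replicate 2, 3 or 4.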
